A study of Mus musculus with 8 samples.

Results

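The circadian clock genes Arntl, Clock, Per1, Per2, Per3, Cry1, Cry2, Nr1d1, Nr1d2 and Dbp were followed in bulk RNA-seq of brown adipose tissue (BAT), the thermogenic fat depot. These 10 genes were chosen by name from the 31053 listed in the count table, and each was found once. The data came from 4 wild-type (WT) mice and 4 Ucp1Δ/Δ mice, which GEO's genotype labels call ATGLKO, all C57BL6/J and 10 weeks old per the labels (the study's own text gives a younger age). Ucp1Δ/Δ mice carry floxed Pnpla2, the gene of adipose triglyceride lipase (ATGL), together with a Cre transgene under the Ucp1 promoter, so that ATGL is removed from UCP1-positive adipocytes while other cells of the tissue retain the gene. Whether the WT mice carried floxed alleles or the Cre transgene is not given in the sources used here, nor is the time of day at which BAT was taken. Every clock gene value is therefore a single reading at an unstated time, and from it a shift in phase and a change in level cannot be told apart. The study's general methods describe an inverted dark-light cycle unless otherwise indicated, and tissue harvest after fasting. Whether both applied to these mice is not said there.

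The mammalian clock is a transcriptional feedback loop. The proteins of Arntl (BMAL1) and Clock pair on E-box sequences and switch on the Per and Cry genes, whose proteins return to block the pair. A second loop, in which the nuclear receptors of Nr1d1 and Nr1d2 (REV-ERBs) repress Arntl and the ROR receptors induce it, steadies the rhythm, and output factors such as Dbp carry it to metabolic genes through D-box sequences. Brown fat has such a clock of its own, and several of these genes, Per1 above all, also answer to hormones and cyclic AMP.

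Libraries held between 2017697 and 3115956 counts, and 3 counts equalled between 0.933 and 1.53 CPM (counts scaled to the size of each library by TMM), so the clock genes with under 20 counts per mouse were measured coarsely. Pnpla2, the deleted gene, was at 2702 to 3152 CPM in WT and 403 to 531 CPM in Ucp1Δ/Δ mice (log2FC -2.62, SE 0.17, adjusted p = 1.97e-07, edgeR quasi-likelihood test). The labels name the stromal vascular fraction as the cell type, but 8 brown adipocyte markers together reached 14346 to 24416 CPM in WT and 10581 to 15602 CPM in Ucp1Δ/Δ mice. Summed macrophage markers ranged from 98.2 to 151 CPM in WT and from 941 to 1528 CPM in Ucp1Δ/Δ mice, and all 8 rose. Summed skeletal muscle markers varied within both genotypes, from 17.7 to 1353 CPM in WT and from 55.6 to 1865 CPM in Ucp1Δ/Δ mice. In bulk tissue fewer cells of a type and less RNA per cell cannot be told apart.

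None of the clock genes passed the genotype test. Of the 10 genes, 9 had enough counts to be tested (Dbp did not), and 0 were higher and 0 lower in Ucp1Δ/Δ mice at an adjusted p under 0.05, where 21% of the 8930 genes tested passed, 13.3% higher and 7.63% lower. At an unadjusted p under 0.05 the count was still 0 of 9, against 32.6% of all genes, and it was 0 with DESeq2 and 1, Per1, with edgeR on all genes with a count in any mouse. By adjusted p those tools also called 0 clock genes, beside 16.9% of all genes for DESeq2 and 15.1% for edgeR with any count kept. The log2FC of the 9 genes ranged from -0.30 for Per3 to 0.61 for Per1, with a median of -0.12 beside -0.01 over all genes. Arntl, Per1, Per2 and Nr1d2 lay above 0 and Clock, Per3, Cry1, Cry2 and Nr1d1 below it. For 0 of the 10 genes did the genotypes separate without overlap, which they did for 23.7% of genes tested. The intervals were wide: for an adjusted p under 0.05 Clock would have needed a log2FC of about 0.59, and Per3 of about 1.08.

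**Figure D1:**
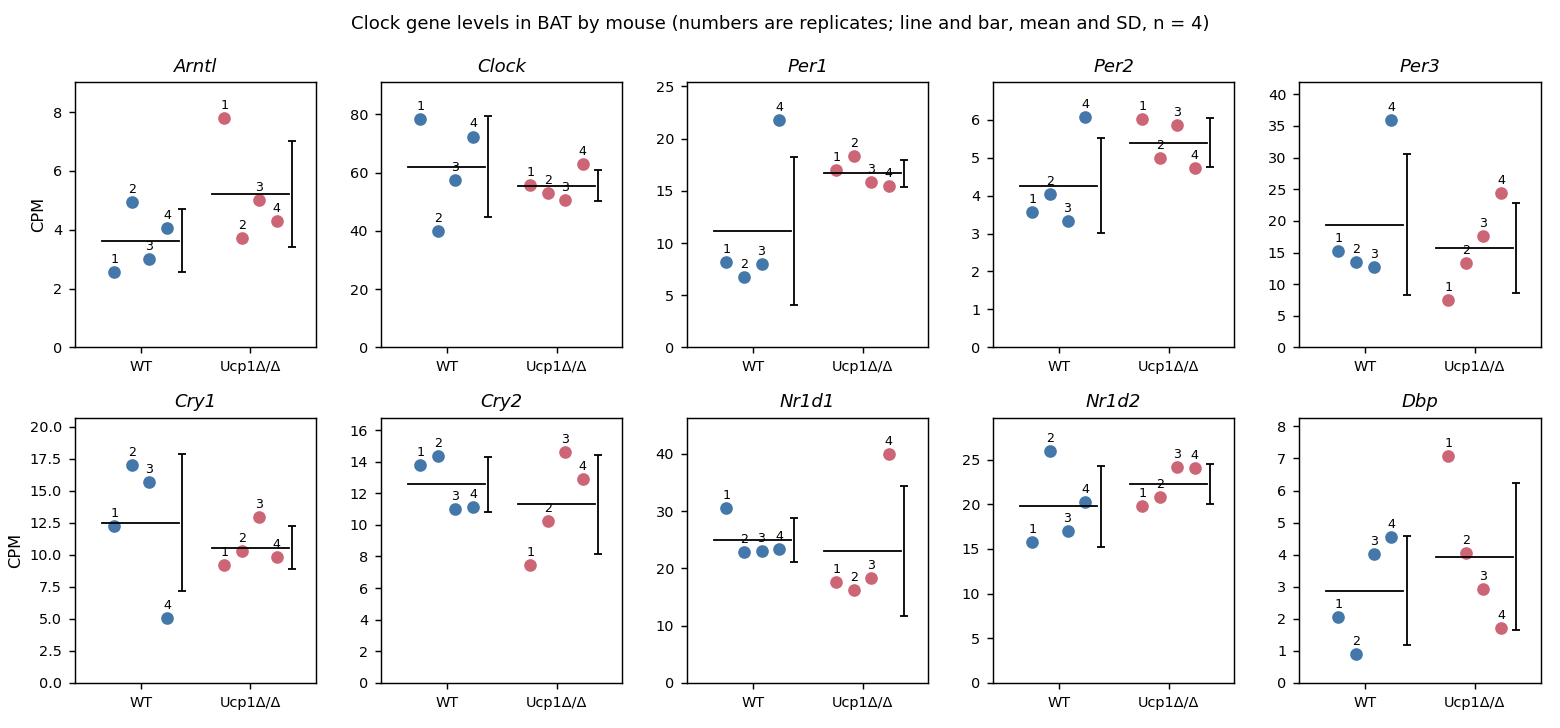
Level of each of the 10 clock genes in CPM (vertical axis, starting at 0) in 4 WT mice (blue) and 4 Ucp1Δ/Δ mice (red); numbers mark the replicate, horizontal lines the mean and bars the SD. The genotypes overlapped for every gene, and WT mouse 4 lay apart from the other WT mice for Per1, Per3 and Cry1, as Ucp1Δ/Δ mouse 4 did for Nr1d1.

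Promoter sequence was read for 9 of the 10 clock genes from RefSeq (GRCm38.p6), over the 250 bases before each listed start. Both strands of these 13 windows were searched for the letters of clock sites. The E-box CACGTG stood in the windows of 2 of the 9 genes, Per1 and Cry1 (2 of 13 windows), and in 6.02% of all 32851 windows. The D-box, TTATGTAA or TTACGTAA, stood in that of 1, Per3 (1 of 13 windows), and in 0.931% of all windows. The core of the site shared by RORs and REV-ERBs, TAGGTCA or TGGGTCA, stood in that of 0 of 9 (0 of 13 windows) and in 5.38% of all windows. The 4 windows shown, those of Per1, Cry1 and Per3 and one of Tef, are written 5′ to 3′ on the strand of the gene, with the E-box or D-box in capitals. They are chr11:69098699-69098948 (+), chr10:85185055-85185304 (-), chr4:151044666-151044915 (-) and chr15:81811164-81811413 (+).
Per1: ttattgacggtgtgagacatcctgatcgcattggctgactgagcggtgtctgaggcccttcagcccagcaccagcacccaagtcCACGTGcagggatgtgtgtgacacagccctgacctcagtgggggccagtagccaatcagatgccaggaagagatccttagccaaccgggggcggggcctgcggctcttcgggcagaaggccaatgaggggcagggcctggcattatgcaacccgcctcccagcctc
Cry1: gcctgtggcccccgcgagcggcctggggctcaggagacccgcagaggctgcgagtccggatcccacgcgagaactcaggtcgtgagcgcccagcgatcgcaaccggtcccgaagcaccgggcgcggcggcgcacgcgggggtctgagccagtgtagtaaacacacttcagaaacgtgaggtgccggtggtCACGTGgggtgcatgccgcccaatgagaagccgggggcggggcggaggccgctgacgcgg
Per3: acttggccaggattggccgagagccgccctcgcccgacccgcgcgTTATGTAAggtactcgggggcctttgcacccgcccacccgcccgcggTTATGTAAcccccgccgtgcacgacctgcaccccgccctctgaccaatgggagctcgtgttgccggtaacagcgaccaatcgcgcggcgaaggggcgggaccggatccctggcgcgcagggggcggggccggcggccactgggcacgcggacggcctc
Tef: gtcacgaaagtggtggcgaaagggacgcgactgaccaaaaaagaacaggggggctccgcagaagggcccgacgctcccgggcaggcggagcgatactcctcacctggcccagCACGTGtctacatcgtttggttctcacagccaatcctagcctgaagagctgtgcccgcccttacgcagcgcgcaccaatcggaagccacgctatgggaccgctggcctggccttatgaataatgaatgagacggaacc
The E-box began 166 bases before the start in Per1 and 60 bases before it in Cry1. The Per3 window held its D-box letters at 2 places. Tef, a relative of Dbp from the wider clock network, is shown for comparison. A match describes these letters and not a binding site, and sites spelled otherwise or outside the windows were not looked for.

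Arntl and Clock encode the activating pair. Arntl (chr7:113207465-113314126, mm10, + strand) was read at 2.55, 4.93, 3.01 and 4.05 CPM in WT mice 1 to 4 and at 7.78, 3.73, 5.01 and 4.29 CPM in Ucp1Δ/Δ mice 1 to 4. Only Ucp1Δ/Δ mice 1 and 3 exceeded the highest WT mouse. These values rested on 5 to 22 counts, and the log2FC of 0.52 had a 95% interval from -0.25 to 1.29 (SE 0.36, adjusted p = 0.353, edgeR). Clock (chr5:76209868-76304792, - strand), the partner that carries acetyltransferase activity, was read at 78.5, 39.9, 57.4 and 72.4 CPM in WT and at 55.9, 52.9, 50.6 and 63.1 CPM in Ucp1Δ/Δ mice. All 4 Ucp1Δ/Δ values fell inside the WT range, and the log2FC of -0.16 had the interval -0.59 to 0.28 (SE 0.20, adjusted p = 0.642, edgeR). Clock had 89 to 172 counts per mouse, so its interval was among the narrowest of the 9.

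The Period genes encode the inhibitors that rise first in the cycle. Per1 (chr11:69095217-69109960, + strand) was read at 8.16, 6.72, 8.01 and 21.8 CPM in WT and at 17.0, 18.4, 15.9 and 15.5 CPM in Ucp1Δ/Δ mice. WT mice 1 to 3 lay below all 4 Ucp1Δ/Δ mice, while WT mouse 4 lay above them all. With all 8 mice the log2FC of Per1, whose promoter window held the E-box, was 0.61 (SE 0.32, 95% interval -0.07 to 1.28, adjusted p = 0.200, edgeR). Leaving out WT mouse 4 raised it to 1.11, with an adjusted p of 0.00368, so that this call depended on that mouse. With all 8 mice, limma voom with sample quality weights gave 0.84 with an adjusted p of 0.0276. Over 19 alternatives the adjusted p of Per1 ran from 0.00368 to 0.421. WT mouse 4 also had the highest share of mitochondrially encoded counts among WT mice (45.6% beside 38.4% to 39.3%), the lowest summed brown adipocyte markers and 643 CPM of skeletal muscle markers. Their part in its Per1 level was not tested.

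Per2 (chr1:91415982-91459324, - strand) was read at 3.57, 4.03, 3.34 and 6.08 CPM in WT and at 6.01, 4.98, 5.85 and 4.72 CPM in Ucp1Δ/Δ mice. The arrangement was that of Per1, with WT mice 1 to 3 below every Ucp1Δ/Δ mouse and WT mouse 4 above them, but on 7 to 17 counts per mouse (log2FC 0.36, SE 0.32, 95% interval -0.32 to 1.04, adjusted p = 0.481, edgeR). Per3 (chr4:151003652-151044665, - strand) was read at 15.3, 13.4, 12.7 and 36.0 CPM in WT and at 7.43, 13.4, 17.6 and 24.5 CPM in Ucp1Δ/Δ mice. Mouse 4 was the highest in each genotype, far above the rest in WT and at the top of an even series in Ucp1Δ/Δ mice. The log2FC of -0.30 had the interval -1.08 to 0.49 (SE 0.37, adjusted p = 0.625, edgeR). Its sign turned to 0.16 without WT mouse 4.

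The cryptochromes Cry1 and Cry2 are the strong repressors that act with the Period proteins. Cry1 (chr10:85131700-85185064, - strand) was read at 12.2, 17.0, 15.7 and 5.07 CPM in WT and at 9.20, 10.3, 13.0 and 9.87 CPM in Ucp1Δ/Δ mice. WT mouse 4, the highest WT mouse for all 3 Period genes, was the lowest of all 8 mice for Cry1, the other clock gene with an E-box in its window. The log2FC of Cry1 was -0.27 (SE 0.31, 95% interval -0.92 to 0.38, adjusted p = 0.591, edgeR). Cry2 (chr2:92403646-92434043, - strand) was read at 13.8, 14.3, 11 and 11.1 CPM in WT and at 7.43, 10.3, 14.6 and 12.9 CPM in Ucp1Δ/Δ mice. Here the Ucp1Δ/Δ mice spanned the whole WT range, with mice 1 and 2 below it and mouse 3 above it (log2FC -0.16, SE 0.25, 95% interval -0.70 to 0.38, adjusted p = 0.714, edgeR). Exons of Cry2 overlap a transcript on the other strand, D930015M05Rik, by 295 bases, and the strand setting of the counting is not given in the sources used here.

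Nr1d1 and Nr1d2 encode REV-ERBα and REV-ERBβ, the heme-binding repressors of the second loop. Nr1d1 (chr11:98767932-98775333, - strand) was read at 30.6, 22.8, 23.0 and 23.3 CPM in WT and at 17.7, 16.2, 18.4 and 39.9 CPM in Ucp1Δ/Δ mice. Ucp1Δ/Δ mice 1 to 3 lay below every WT mouse, whereas Ucp1Δ/Δ mouse 4 lay above them all, the reverse of the pattern of Per1. Its log2FC was -0.12 (SE 0.27, 95% interval -0.71 to 0.46, adjusted p = 0.798, edgeR), and without Ucp1Δ/Δ mouse 4 it was -0.51, with an adjusted p of 0.125. Nr1d1 shares 263 exonic bases with Thra, the thyroid hormone receptor α gene on the other strand, for which the log2FC was -0.21 (SE 0.16, adjusted p = 0.402, edgeR). Nr1d2 (chr14:18204054-18239127, - strand) was read at 15.8, 26.0, 17.0 and 20.3 CPM in WT and at 19.8, 20.8, 24.2 and 24 CPM in Ucp1Δ/Δ mice. All 4 Ucp1Δ/Δ values again fell inside the WT range (log2FC 0.17, SE 0.21, 95% interval -0.28 to 0.61, adjusted p = 0.626, edgeR).

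Dbp encodes a PAR bZIP activator and is usually among the genes with the steepest daily swing. Dbp (chr7:45705088-45710203, + strand) had 4, 2, 12 and 9 counts in WT and 20, 13, 7 and 4 counts in Ucp1Δ/Δ mice, or 2.04, 0.896, 4.01 and 4.56 CPM and 7.08, 4.05, 2.93 and 1.72 CPM. The genotypes overlapped almost completely, and the 2 lowest values came from different genotypes. With all genes of any count kept, edgeR gave a log2FC of 0.43 (SE 0.47, adjusted p = 0.569), and the two-sided exact permutation test of mean log2 CPM gave p = 0.457, where 0.0286 was the smallest p that 4 against 4 mice allow. Exons of Dbp overlap those of Sphk2 on the other strand by 539 bases. By the same permutation test, 0 of the 10 clock genes had a p under 0.05.

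**Figure D2:**
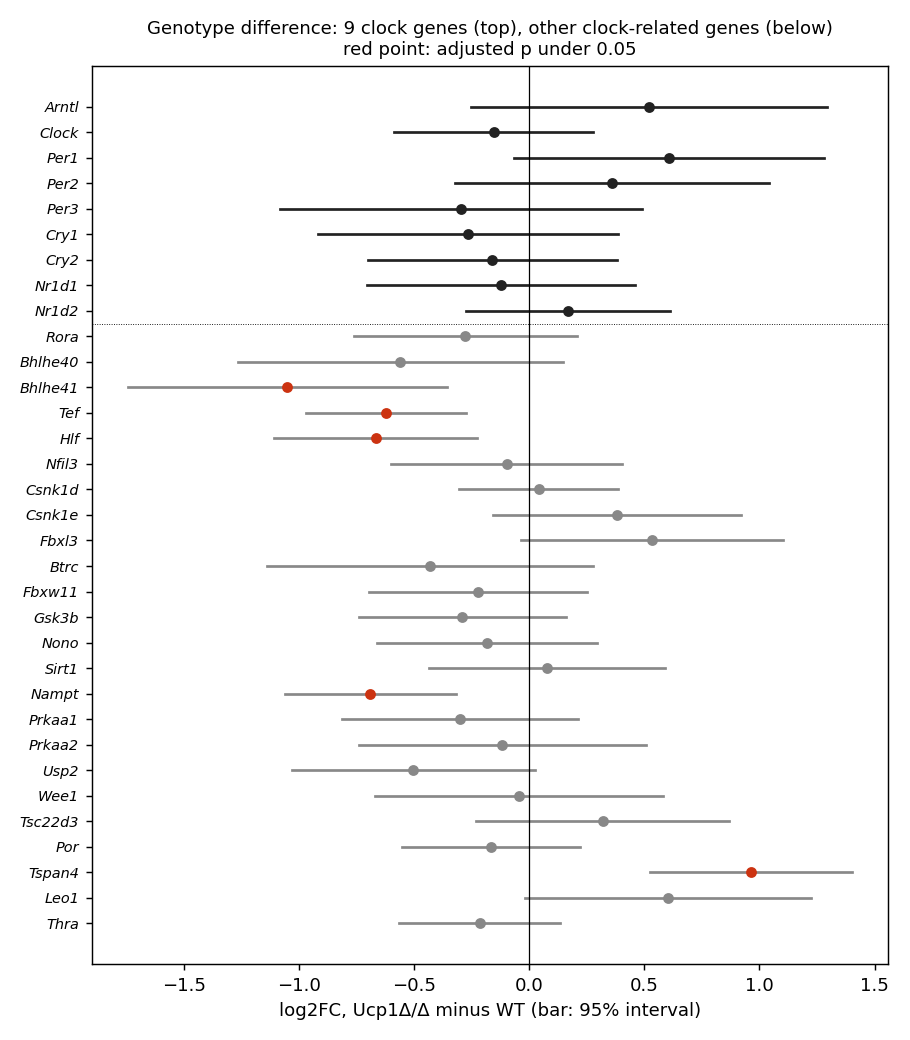
Fitted log2FC of Ucp1Δ/Δ minus WT (horizontal axis) with 95% intervals for the 9 clock genes tested (top) and 24 other clock-related genes (below the dotted line); red points passed an adjusted p under 0.05. The intervals of all 9 clock genes cross 0, from -0.30 for Per3 to 0.61 for Per1, while 5 genes of the lower group passed.

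Between mice of the same genotype, Per3 varied most and Per2 least by counts set against counting error, while Dbp varied most by the fold between mice. The spread index, the Pearson chi-square of counts within genotypes per degree of freedom, equals 1 where only counting error acts. It was 0.501 for Per2, 1.24 for Arntl, 1.45 for Cry2 and 1.48 for Nr1d2. It reached 5.0 for Per1, 5.83 for Clock, 7.65 for Nr1d1 and 11.4 for Per3. The median SD of log2 CPM within genotypes was 0.41 over the 10 genes. The median spread index was 2.74, beside 2.53 over all genes tested. The index grows with the number of counts. Relative to genes of like abundance, the quasi-dispersion of Per3 was 4.55 times the trend, higher than that of 98.2% of genes tested, and Per1 and Nr1d1 were each at 2.34 times the trend, higher than 89.9%. Per2 lay at the other end, at 0.307 times the trend and above 7.74% of genes.

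**Figure D3:**
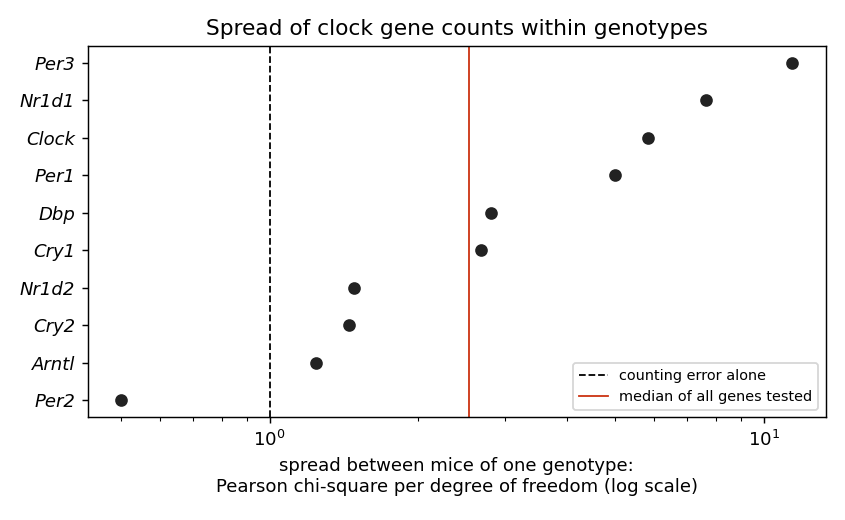
Spread index of the counts of each clock gene between mice of one genotype (horizontal axis, log scale). The dashed line at 1 marks counting error alone and the red line the median of all genes tested, 2.53; Per2 sits lowest at 0.501 and Per3 highest at 11.4.

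The range between mice was wider in WT for some clock genes and wider in Ucp1Δ/Δ mice for others. Between the lowest and highest mouse, Per1 varied 3.24-fold in WT and 1.19-fold in Ucp1Δ/Δ mice, and Cry1 varied 3.36-fold and 1.41-fold. Nr1d1 went the other way, 1.34-fold in WT and 2.47-fold in Ucp1Δ/Δ mice, and Cry2 varied 1.30-fold and 1.97-fold. Per3 varied widely in both, 2.83-fold and 3.29-fold. Dbp varied 5.09-fold and 4.12-fold, from lowest counts of 2 and 4. The contrasts for Per1, Cry1 and Nr1d1 each rested on a single mouse. Without WT mouse 4, the WT mice lay between 6.72 and 8.16 CPM for Per1 and between 12.2 and 17.0 CPM for Cry1. Without Ucp1Δ/Δ mouse 4, the Ucp1Δ/Δ mice lay between 16.2 and 18.4 CPM for Nr1d1. These differences in spread were not tested.

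Within WT, mouse 4 was the highest for Per1, Per2, Per3 and Dbp and the lowest for Cry1. WT mouse 2 had the lowest Clock, Per1, Nr1d1 and Dbp and the highest Arntl, Cry1, Cry2 and Nr1d2, and it was an extreme of its genotype for 8 of the 10 genes. WT mouse 2 had the least Dbp and WT mouse 4 the most, and these mice also stood at opposite ends for Per1 and Cry1. Among Ucp1Δ/Δ mice, mouse 1 had the highest Arntl, Per2 and Dbp and the lowest Per3, Cry1, Cry2 and Nr1d2. Ucp1Δ/Δ mouse 4 had the highest Clock, Per3 and Nr1d1 and the lowest Per1, Per2 and Dbp. With 4 mice a genotype some mouse is always highest, so these orders are descriptions.

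**Figure D4:**
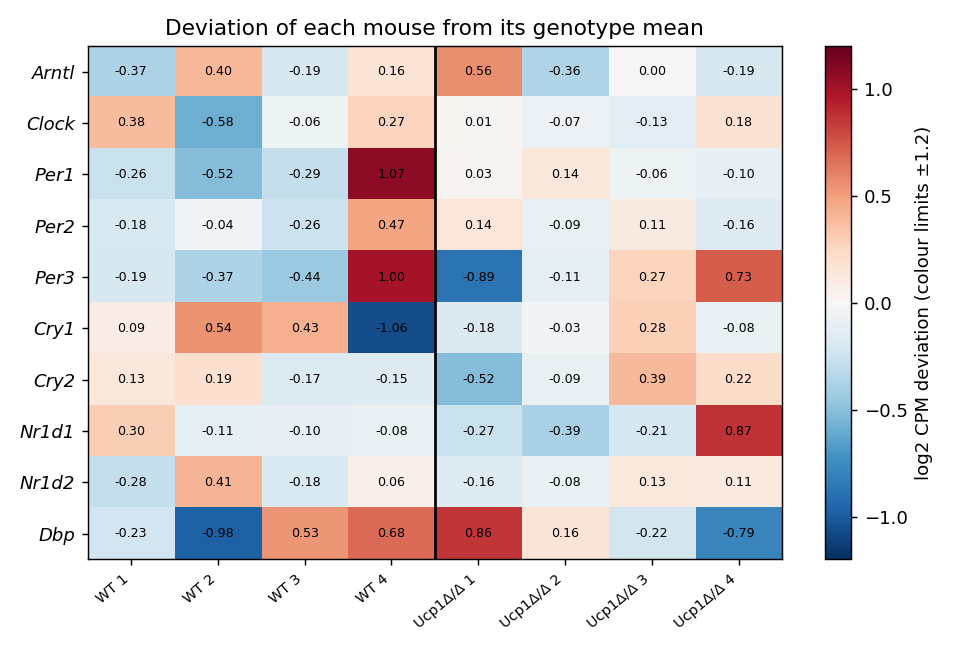
Deviation of each mouse (columns) from the mean of its genotype for each clock gene (rows), in log2 CPM with a prior count of 2; red is above and blue below the mean. WT mouse 4 deviates by 1.07 for Per1, 1.0 for Per3 and -1.06 for Cry1, and Ucp1Δ/Δ mouse 4 by 0.87 for Nr1d1 and -0.79 for Dbp.

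Arntl was set against each of the other 8 clock genes tested, over the deviations of the 8 mice from their genotype means. In a running clock Arntl peaks opposite to Per and Nr1d1. Pearson's r was -0.33 for Nr1d1 (Spearman's rho -0.33), -0.28 for Per3 (rho -0.29), 0.091 for Per1 (rho 0.071) and 0.56 for Per2 (rho 0.71). For 0 of the 8 pairs was the adjusted p under 0.05, and with the exact permutation test within genotypes the adjusted p ran from 0.688 to 0.932 for r and from 0.583 to 0.903 for rho. The smallest unadjusted permutation p was 0.0729, for the rho of Per2. Without Ucp1Δ/Δ mouse 1 and WT mouse 2, the mice farthest from the median of Arntl, r was 0.71 for Per1 and 0.71 for Per3 and -0.15 for Nr1d1, so the sign for Per3 rested on those mice. Arntl had 5 to 22 counts and a spread index of 1.24, near counting error. Its pairs therefore cannot show whether the clock genes moved together. Pairs without Arntl were not tested. Their r ran from -0.95 for Per1 with Cry1 to 0.82 for Per1 with Per2, and WT mouse 4 deviated most for each of these genes.

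Of the genes tested with a mean of at least 10 CPM, those whose deviations were most like those of Dbp over the 8 mice were Tm9sf4 (r = 0.950), Fundc2 (r = 0.950), Prpf3 (r = 0.938), Cygb (r = 0.936) and Ivd (r = 0.934). The most opposite were Nf2 (r = -0.950), Coq7 (r = -0.933), Gtf2a2 (r = -0.932), Lpin2 (r = -0.926) and Naa20 (r = -0.912). They are the extremes of 6421 candidates, set against a gene with 2 to 20 counts per mouse. No clock gene was a candidate, since the 10 genes were left out.

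In the wider clock network, 5 of 24 tested genes passed and 19 did not, a share close to the 21% of all genes tested. Of the 5 genes, 1 was higher and 4 were lower in Ucp1Δ/Δ mice. The list held 31 receptors, kinases, ligases, output factors and widely rhythmic genes, of which 7 had too few counts to be tested. Its median log2FC was -0.20, with 7 genes above 0 and 17 below. The share that passed lower, 4 of 24, stood beside 7.63% of all genes, and the share that passed higher, 1 of 24, beside 13.3%. Of the 24 tested genes, the genotypes did not overlap for 1 in the higher and 4 in the lower direction. The shares over all genes were 14.4% and 9.37%. These were the same 5 genes that passed, so the separation is not separate evidence for them.

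Bhlhe41, or DEC2, which represses at E-boxes, was read at 9.18, 8.96, 7.01 and 5.07 CPM in WT and at 4.95, 3.11, 2.93 and 3.43 CPM in Ucp1Δ/Δ mice. Its log2FC was -1.05 (SE 0.33, adjusted p = 0.0315, edgeR), although WT mouse 4 and Ucp1Δ/Δ mouse 1 nearly touched. These values rested on 10 to 21 counts in WT and 7 to 14 in Ucp1Δ/Δ mice, so Bhlhe41 entered the test through the WT mice. Its exons overlap Gm43909 on the other strand by 1280 bases, and the strand setting of the counting is not given. Rora, a nuclear receptor gene of the second loop, had a log2FC of -0.28 (SE 0.23, adjusted p = 0.436), Bhlhe40 one of -0.56 (SE 0.33, adjusted p = 0.265) and Nfil3, the D-box repressor, one of -0.10 (SE 0.24, adjusted p = 0.816), and edgeR called none of the 3. These 3 were named after their values were seen.

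Tef and Hlf encode the PAR bZIP relatives of Dbp. Tef was read at 181, 138, 188 and 154 CPM in WT and at 106, 98.9, 107 and 118 CPM in Ucp1Δ/Δ mice, and it fell by 0.62 on the log2 scale (SE 0.16, adjusted p = 0.0129, edgeR). Every Ucp1Δ/Δ mouse lay below every WT mouse, on values far above those of Dbp in counts. Hlf was read at 35.2, 26.4, 44.4 and 48.6 CPM in WT and at 25.8, 21.8, 26.3 and 23.6 CPM in Ucp1Δ/Δ mice (log2FC -0.67, SE 0.21, adjusted p = 0.0317, edgeR). Its lowest WT mouse and highest Ucp1Δ/Δ mouse were almost equal, at 26.4 and 26.3 CPM. Nampt, the rate-limiting enzyme of NAD salvage and a target of CLOCK and BMAL1, was read at 291, 194, 223 and 240 CPM in WT and at 132, 154, 130 and 171 CPM in Ucp1Δ/Δ mice (log2FC -0.69, SE 0.17, adjusted p = 0.0103, edgeR).

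Tspan4, a tetraspanin gene rhythmic in many organs, was the gene of the list that rose. It was read at 65.8, 62.3, 38.4 and 43.1 CPM in WT and at 120, 97.1, 110 and 79.8 CPM in Ucp1Δ/Δ mice (log2FC 0.96, SE 0.21, adjusted p = 0.00335, edgeR). The gene starts 14496 bases beyond the end of Pnpla2 on chromosome 7 (chr7:141475240-141493427, + strand). What this position next to the engineered locus contributes was not tested.

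**Figure D5:**
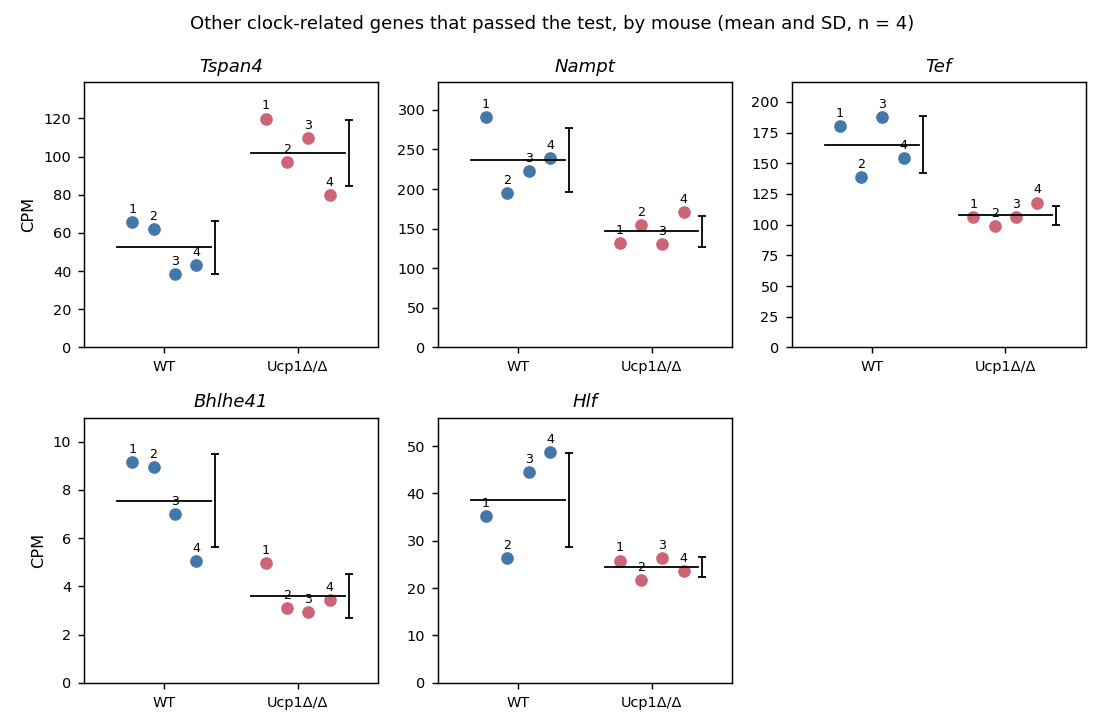
Level in CPM (vertical axes, starting at 0) of the 5 clock-related genes that passed the test, by mouse, with mean and SD; blue is WT and red Ucp1Δ/Δ. Tspan4 was higher and Nampt, Tef, Bhlhe41 and Hlf were lower in all 4 Ucp1Δ/Δ mice than in all 4 WT mice, with Hlf nearly touching at 26.3 and 26.4 CPM.

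An E-box stood in promoter windows of Tef, Bhlhe41 and Tspan4, 3 of the 5 genes that passed, beside 6.02% of all windows. Tef and Tspan4 have 2 windows each, so a count of genes is not on the scale of that share of windows. The Bhlhe41 window lies partly in annotated exon, and 1 of the 2 Tef windows lies wholly in it. Listed genes that did not pass were not searched.

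These calls differed in how firmly they held. Tspan4 passed in 19 of 19 alternatives. Nampt passed in 18 of 19 and Tef in 16 of 19, without passing when Ucp1Δ/Δ mouse 2 was left out (adjusted p = 0.0529, edgeR). Bhlhe41 passed in 9 of 18 and Hlf in 10 of 19. The 4 lower calls became 1 without Ucp1Δ/Δ mouse 2, and 2 without WT mouse 3, Ucp1Δ/Δ mouse 3 or Ucp1Δ/Δ mouse 4. With the 4 mice of least skeletal muscle RNA, 2 of each genotype, 0 of the 4 passed, and their log2FC lay between -0.97 and -0.45. With the muscle level as a covariate 5 genes of the list were lower. The summed brown adipocyte markers were lower in 3 of 4 Ucp1Δ/Δ mice than in all WT mice. Of the 8 markers, 3 fell (Cidea, Adipoq and Plin1), 1 rose (Dio2, log2FC 1.45, adjusted p = 0.0231, edgeR) and 4 did not pass, Ucp1 among them. Their part in these calls was not tested.

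Arntl2, a paralog of Arntl, and Timeless, which had too few counts to be tested, separated by genotype and were singled out after their values were seen. The genotypes separated in the higher direction for 14.4% of genes tested. The other untested genes of the wider clock list, Npas2, Rorb, Ciart, Fbxl21 and Lonrf3, overlapped. Arntl2 had 2 to 3 counts in WT and 5 to 18 counts in Ucp1Δ/Δ mice. Timeless had 1 to 3 counts in WT and 4 to 11 counts in Ucp1Δ/Δ mice. With genes of any count kept, the adjusted p was 0.0237 for Arntl2 and 0.0684 for Timeless (edgeR). In that test 15.1% of all genes passed.

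Per1 is also a target of glucocorticoids and of the fast response to cyclic AMP, so genes of those responses were read beside it. Of 10 glucocorticoid-responsive genes, 1 rose, the phosphatase gene Dusp1 (log2FC 3.43, SE 0.68, adjusted p = 0.00189, edgeR), and 0 fell, beside 13.3% of all genes higher and 7.63% lower. Dusp1 overlapped between genotypes, since Ucp1Δ/Δ mouse 4 at 6.44 CPM lay below WT mouse 4 at 7.60 CPM. Its WT counts were 7, 5, 1 and 15, beside 15 to 186 in Ucp1Δ/Δ mice, so it too entered the test through the Ucp1Δ/Δ mice. The immediate early list held 12 genes, of which Fos, Fosb and Ier2 had too few counts to be tested. By mean CPM, Fos (1.33 in WT, 9.95 in Ucp1Δ/Δ mice) and Fosb (0 and 2.07) were higher and Ier2 (5.05 and 2.69) lower. Of 9 immediate early genes tested, 7 rose and 0 fell, beside the same shares of all genes. They were led by Jund (log2FC 1.70, adjusted p = 1.74e-05, edgeR) and Atf3 (log2FC 4.36, adjusted p = 2.19e-05, edgeR). Atf3 had 1, 4, 1 and 0 counts in WT and 22 to 64 in Ucp1Δ/Δ mice. It thus entered the test through the mice in which it was high, and the size of its log2FC is coarse. Ier3, Egr1, Btg2, Zfp36 and Junb followed, with log2FC between 1.42 and 2.82. Junb, Btg2 and Zfp36 overlapped between genotypes, with Ucp1Δ/Δ mouse 4 at 6.01, 7.30 and 8.16 CPM, within the WT ranges. Summed immediate early genes were at 139 to 211 CPM in WT and 334 to 734 CPM in Ucp1Δ/Δ mice, without overlap, and Jund made up a large part of the sum (53.1 to 82.1 CPM in WT and 170 to 255 CPM in Ucp1Δ/Δ mice). WT mouse 4, with its high Per1, had a summed immediate early level of 195 CPM, within the range of the other WT mice, and so was its summed glucocorticoid-responsive level of 2584 CPM. Mt1 alone gave 1441 CPM of that glucocorticoid-responsive sum. Single genes of the glucocorticoid list were highest in WT mouse 4 among WT mice. They were Tsc22d3 at 98.8 CPM beside 42.4 to 77.5, Klf9 at 388 CPM beside 180 to 369, and Dusp1 at 7.60 CPM beside 0.334 to 3.57. Mt2 was lowest in that mouse, at 168 CPM beside 194 to 388, and the rest of the list lay in between. Single immediate early genes also stood out in WT mouse 4. Among WT mice it was highest for Jun (77.0 CPM beside 30.5 to 70.4), Ier3 (11.1 beside 3.14 to 5.61), Btg2 (9.12 beside 5.38 to 6.68) and Zfp36 (9.62 beside 8.01 to 9.41). It was lowest for Nr4a1 (3.55 CPM beside 7.14 to 12.7) and for Atf3 (0 counts). These values were picked out after they were seen. The part of either response in the Per1 levels was not tested.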

How the data were processed

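BAT of 8 mice was profiled by single-end digital mRNA-seq and deposited as 1 table of raw counts and 1 of log2 values. Per the labels and the study's methods, the authors trimmed, aligned and counted reads against mm10. Tool names differ between the sources (STAR and HTSeq in the methods, HISAT2 and Trimmomatic in the submitters' processing notes), and the strand setting is not given in the sources used here. The deposited log2 values equalled log2 of count over a size factor plus 1 and served only as an alternative.

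Counts were scaled by TMM, filtered by filterByExpr (8930 of 31053 genes remained) and tested with edgeR 4.0.16 (quasi-likelihood test, Benjamini-Hochberg adjustment over all genes tested, threshold 0.05) in R 4.3.3. DESeq2 1.42.0 and limma 3.58.1 were alternatives. The SE was the absolute log2FC over the square root of F. CPM were scaled by TMM, and log2 CPM used a prior count of 2. The pipeline was tested on simulated data. No libraries agreed within sampling noise. Intervals cover the spread between these mice, and depth between 2017697 and 3115956 counts limits genes with few counts. The clock genes, gene lists and tests were chosen with earlier results of these data known. Named genes were all 10 clock genes, Pnpla2, Thra, up to 8 genes per list with an adjusted p under 0.05, and the 5 most like and 5 most opposite Dbp. Other listed genes were named after their values were seen, or because a mouse stood apart. An item of the wider clock list is not reported here. Endothelial (0 of 5) and fibroblast (4 of 4) markers were also counted as higher, and T cell, B cell and neutrophil markers had too few counts to be tested. Replicate numbers did not pair the mice: same-numbered deviations correlated between -0.20 and 0.30.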

Additional observations from a re-analysis of the deposited data

Results flagged for a closer look

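In each group of 4 mice, the gap between an extreme mouse and its nearest neighbour was divided by the range of the group in log2 CPM, and a ratio above 0.829 was taken as standing apart. This happened in 12 of 125 groups of the clock genes and listed genes. The nominal rate of that cut-off gives about 6.25, but it holds for normal values in independent groups. Low counts and genes that vary together do not meet those terms, so the numbers do not show an excess. Where only 1 mouse of a group is above 0, the ratio is always 1.

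Among the clock genes, Per1 had WT mouse 4 high (ratio 0.841), with 43 counts beside 15 to 24 in the other WT mice. Nr1d1 had WT mouse 1 high (ratio 0.933) over 3 nearly equal mice, and Ucp1Δ/Δ mouse 4 high (ratio 0.860), with 93 counts beside 44 to 52.

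In the wider clock network, Gsk3b was low in WT mouse 2 (ratio 0.905) and in Ucp1Δ/Δ mouse 1 (ratio 0.859). Npas2 was low in WT mouse 4 (ratio 0.850), with 1 count beside 3 to 4. Ciart was above 0 in WT mouse 1 alone among WT mice (ratio 1, 1 count) and Fbxl21 in WT mouse 2 alone among WT mice (ratio 1, 4 counts). Among response genes, Fkbp5 was high in WT mouse 1 (ratio 0.908) and low in Ucp1Δ/Δ mouse 3 (ratio 0.896), with 7 counts beside 60 to 67. Sgk1 was low in Ucp1Δ/Δ mouse 4 (ratio 0.948) and Junb in WT mouse 2 (ratio 0.985).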

How the results depend on the processing

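The 9 clock genes stayed below the threshold in most alternatives: 1, Per1, passed with limma voom with sample quality weights, and leaving out 1 mouse gave 0 to 1 (Per1, without WT mouse 4). The sign turned for Clock (0.13 with the 4 mice of least skeletal muscle RNA), for Per3 (0.16 without WT mouse 4, range -0.59 to 0.16 over single mice left out), for Cry2 (0.0041 without Ucp1Δ/Δ mouse 1, range -0.29 to 0.0041) and for Nr1d1 (0.012 with total counts only, 0.027 without Ucp1Δ/Δ mouse 2, range -0.51 to 0.027). Over all genes, 1872 passed, or 1195 with a minimum of 10 counts per mouse, 1025 with the 4 mice and 1345 to 2155 with 1 mouse left out. Of these 1191 were higher (746, 760 and 945 to 1304) and 681 lower (449, 265 and 400 to 851, the fewest without Ucp1Δ/Δ mouse 2; 404 with total counts only, which moved the median log2FC of all genes to 0.13). Among other clock genes 5 passed, 2 with total counts only, 3 with that minimum, 1 with the 4 mice and 2 to 6 with 1 mouse left out. The lower calls numbered 4, 1 with total counts only, 2 with that minimum, 0 with the 4 mice and 1 to 5 with 1 mouse left out. Glucocorticoid-responsive calls numbered 1, 2 with total counts only, 3 with any count kept, 0 with the minimum, 2 with the 4 mice and 1 to 2 with 1 mouse left out (2 without WT mouse 1 or Ucp1Δ/Δ mouse 3). Immediate early calls numbered 7, 4 with the minimum and 5 to 8 with 1 mouse left out. The replicate block gave 1719 calls over all genes, 0 clock genes, 5 other clock genes and 3 glucocorticoid-responsive genes, and same-numbered mice correlated by 0.065 on average, 1 of 4 numbers best with its own. The muscle covariate, the 4-mouse comparison and the limma trend on log2 values were added after seeing the data. The causes were not tested.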
